A study of Mus musculus with 6 samples.

Results

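Chromatin accessibility was examined at 10 genes of glucose metabolism in neural stem cell cultures that lack the Srr2 enhancer of Sox2. The genes are Slc2a1, Hk1, Hk2, Pfkp, Eno1, Eno2, Pkm, Ldha, Ldhb and Slc25a4. ATAC-seq measures open chromatin as the DNA that a transposase can reach and tag. It had been run on 6 libraries, and a list of peaks (stretches with more cuts than the local background) was available for each. Peaks of the 6 lists that overlapped by at least 1 bp were merged into regions, and every region that touched one of the 10 gene bodies or the 20 kb on either side was taken. This gave 76 regions of 119719 in the genome (GRCm38, gene models of GENCODE M21), between 5 and 13 a gene, and none was shared by 2 of the genes.

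The cultures came from the subependymal zone (SEZ), the neurogenic niche along the lateral ventricle, of mice aged 10 weeks. All 6 libraries were Srr2del/del, homozygous for a deletion made with CRISPR-Cas9, so neither state is a wild-type reference and wild-type cultures were not analysed here. In the proliferating state (PROLIF, 3 libraries, replicates 1, 2 and 4), secondary neurosphere cells had been seeded on Matrigel with FGF for 2 days in vitro. In the early differentiating state (DIFF, 3 libraries, replicates 1, 2 and 4), mitogens were then withdrawn and cells were kept for 1 more day with 2% fetal bovine serum. Mutant mice had been bred from more than 1 founder, and the line behind each library was not given in the labels, nor whether replicates were separate animals, so p-values measure the spread between these libraries.

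Glycolysis splits glucose into pyruvate in the cytosol and yields ATP without oxygen, and lactate dehydrogenase turns pyruvate into lactate when mitochondria do not take it up. Proliferating neural progenitors are known for high glycolytic flux, and neurons for a greater reliance on mitochondrial respiration. Slc2a1 encodes GLUT1, the glucose transporter. Hk1 and Hk2 encode hexokinases, which trap glucose as its phosphate, and Pfkp the platelet isoform of phosphofructokinase, the committed step. Eno1 and Eno2 encode enolases, the second being the neuronal isozyme, Pkm the muscle-type pyruvate kinase with its M1 and M2 splice forms, and Ldha and Ldhb the lactate dehydrogenase subunits. Slc25a4 is no glycolytic enzyme: it encodes the ADP/ATP carrier of the inner mitochondrial membrane.

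The lists held between 60006 and 88039 peaks, and the background pileup solved from fold and p lay between 2.85 and 3.63 reads in 5 libraries and at 6.01 reads in DIFF 4, the deepest. Lists of such unequal depth were compared by rank: the percentile of a peak is the percentage of its own list with the same or a weaker −log10 p, so 100 is the strongest peak of the library. Markers of the cultured cells were checked first: the neural stem and progenitor genes Sox2, Nes, Fabp7, Vim, Sox9, Egfr and Olig2 each had a promoter peak in all 6 libraries, Sox2 at percentiles from 79.1 to 91.7. Of the markers of other cells, Snap25 (neuron) had a promoter peak in all 6, Rbfox3 (neuron), Aif1 and Tmem119 (microglia) in 5, Mog (oligodendrocyte) in 1, and Mag, Cx3cr1, C1qa, Ptprc, Pecam1, Cdh5 and Cldn5 in 0. The peak names carried dataset numbers in 2 ranges, 227 to 297 for PROLIF 1, PROLIF 4 and DIFF 1 and 606 to 614 for PROLIF 2, DIFF 2 and DIFF 4. The deletion itself was not checked in these lists. In cultures of mixed cells, fewer open cells and less opening per cell cannot be told apart.

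The promoter sequences that the next results turn on are shown first, in the direction of transcription, each from 250 bases before to 50 after a RefSeq start (GRCm38.p6). The starts taken were those nearest to the summits of the gene's strongest promoter region, and all 10 genes had a RefSeq promoter overlapping that region. Capitals mark every match, on either strand, to 7 motifs: ACGTG (the core bound by hypoxia-inducible factors, HIF), CACGTG (E-box, each copy of which also holds ACGTG on both strands), TGACGTCA (CRE), TGANTCA (AP-1), GGGCGG (SP1/KLF), ACAATG (SOX) and CCAAT (NFY). The 4 promoters with ACGTG are given and, for contrast, that of Eno2, which had the weakest peak of the 10. The printed Eno2 bases held no match. They left out the median summit of its promoter region, around which AP-1 and GGGCGG matches were found.

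Ldha promoter (chr7:46845554-46845853, + strand): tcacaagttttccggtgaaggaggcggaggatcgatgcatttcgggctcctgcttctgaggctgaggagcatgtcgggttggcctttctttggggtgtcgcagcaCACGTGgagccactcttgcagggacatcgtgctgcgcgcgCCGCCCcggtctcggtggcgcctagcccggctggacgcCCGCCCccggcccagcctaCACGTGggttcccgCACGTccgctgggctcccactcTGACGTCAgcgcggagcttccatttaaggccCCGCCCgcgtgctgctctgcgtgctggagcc
Hk1 promoter (chr10:62340372-62340671, - strand): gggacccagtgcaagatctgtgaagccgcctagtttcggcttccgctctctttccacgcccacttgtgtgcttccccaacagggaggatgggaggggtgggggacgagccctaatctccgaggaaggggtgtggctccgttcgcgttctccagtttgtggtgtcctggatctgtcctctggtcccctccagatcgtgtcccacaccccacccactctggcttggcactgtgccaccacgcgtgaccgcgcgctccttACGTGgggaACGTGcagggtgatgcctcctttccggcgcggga
Hk2 promoter (chr6:82774405-82774704, - strand): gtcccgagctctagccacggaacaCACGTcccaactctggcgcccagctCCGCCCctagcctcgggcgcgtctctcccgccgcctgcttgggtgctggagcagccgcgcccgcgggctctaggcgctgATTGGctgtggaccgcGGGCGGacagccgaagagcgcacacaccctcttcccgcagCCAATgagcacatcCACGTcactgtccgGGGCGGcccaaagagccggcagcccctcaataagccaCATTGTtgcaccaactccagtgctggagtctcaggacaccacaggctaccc
Slc2a1 promoter (chr4:119108495-119108794, + strand): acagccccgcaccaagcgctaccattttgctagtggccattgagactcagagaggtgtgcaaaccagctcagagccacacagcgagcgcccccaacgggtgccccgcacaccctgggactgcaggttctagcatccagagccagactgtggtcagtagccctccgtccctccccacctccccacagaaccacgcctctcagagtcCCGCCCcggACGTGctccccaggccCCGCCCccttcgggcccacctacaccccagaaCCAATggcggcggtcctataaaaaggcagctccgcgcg
Eno2 promoter (chr6:124769624-124769923, - strand): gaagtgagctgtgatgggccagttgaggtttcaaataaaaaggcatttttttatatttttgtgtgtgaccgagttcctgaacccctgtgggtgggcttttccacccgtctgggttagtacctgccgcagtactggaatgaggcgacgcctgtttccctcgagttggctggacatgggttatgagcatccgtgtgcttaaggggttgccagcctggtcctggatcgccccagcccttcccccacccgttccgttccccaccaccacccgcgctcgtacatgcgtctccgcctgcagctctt

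ACGTG was in 4 of the 10 promoters, those of Ldha, Hk1, Hk2 and Slc2a1, against 19.6% of 32851 RefSeq promoters of the same length. Ldha held 5 copies by strand, 4 of them from its 2 E-boxes, whereas Hk2 and Hk1 held 2 each and Slc2a1 1. E-boxes and a CRE were matched in Ldha alone, and their shares among all promoters were 7.15% and 1.79%. GGGCGG was in 7 of 10 (35.7% of all promoters), CCAAT in 7 of 10 (37.4%), ACAATG in 2 of 10, Hk2 and Ldhb (12.6%), and TGANTCA in 0 of 10 (7.81%). The promoters were rich in CpG: their observed-to-expected CpG ratio ran from 0.605 to 0.882 with a median of 0.687, against a median of 0.384 over all promoters, and all 10 lay above that median. Their median GC content was 65.2%, against 52.7%. A match is a string of letters in this window and no evidence of binding. The motif counts cover the RefSeq windows alone, and those of Hk1 and Eno2 left out the median summit of the promoter region. Bases around the Eno2 summit held 1 TGANTCA and 2 GGGCGG matches. Those around the Hk1 summit held 1 GGGCGG and 1 CCAAT match but no ACGTG.

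Occupancy was first compared between the states over the 76 regions. A peak was present in all 6 libraries at 37 of them (48.7%), against 33.5% of all regions. There was 1 PROLIF-only region, with a peak in every PROLIF and no DIFF library, in an intron of Pfkp, and 1 DIFF-only region, in an intron of Slc2a1. The genome-wide shares of these classes were 1.79% and 3.48%. Both counts moved with single libraries: without PROLIF 2 or PROLIF 4 there were 2 PROLIF-only regions, and DIFF-only regions numbered 4 without PROLIF 1 and 5 without DIFF 2. The other 37 regions were mixed, and 14 of these (18.4% of the 76, against 29.6% of all regions) had a peak in 1 library alone, most often DIFF 4 with 6 and PROLIF 1 with 5. Those were the 2 longest lists.

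**Figure D1:**
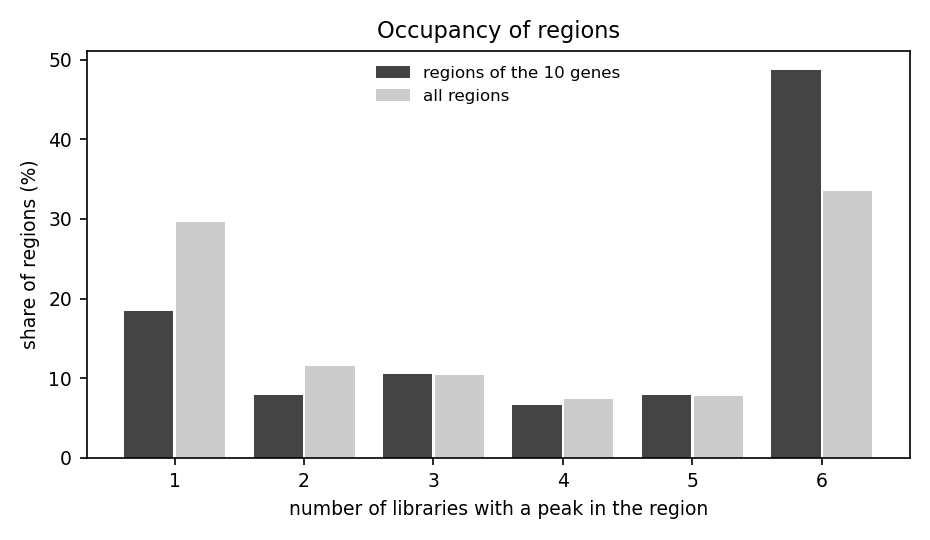
Share of regions (%, vertical axis) by the number of libraries with a peak (horizontal axis), for the 76 regions of the 10 genes (dark bars) and all 119719 regions (light bars). Regions found in all 6 libraries made up 48.7% of the first set and 33.5% of the second, and regions found in 1 library 18.4% and 29.6%.

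Much of the constant share lay near transcription starts. Within 3 kb of a start, 22 of 31 regions of the 10 genes had a peak in all 6 libraries (71.0%, against 64.8% of all regions so placed), and farther away 15 of 45 had (33.3%, against 26.1%). By place, 18 of 23 regions at a member's own start were constant, 4 of 19 in the rest of the gene bodies, 4 of 8 at starts of other genes, 4 of 5 in bodies of other genes and 7 of 21 between genes. Neither state held more of these peaks than the other beyond the spread. The 10 windows took 8.48, 7.37 and 8.53 of every 10000 peaks in PROLIF 1, 2 and 4, and 9.42, 7.51 and 8.09 in DIFF 1, 2 and 4. The ranges overlapped, with means of 8.13 ± 0.654 and 8.34 ± 0.981 (SD, n = 3 each).

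**Figure D2:**
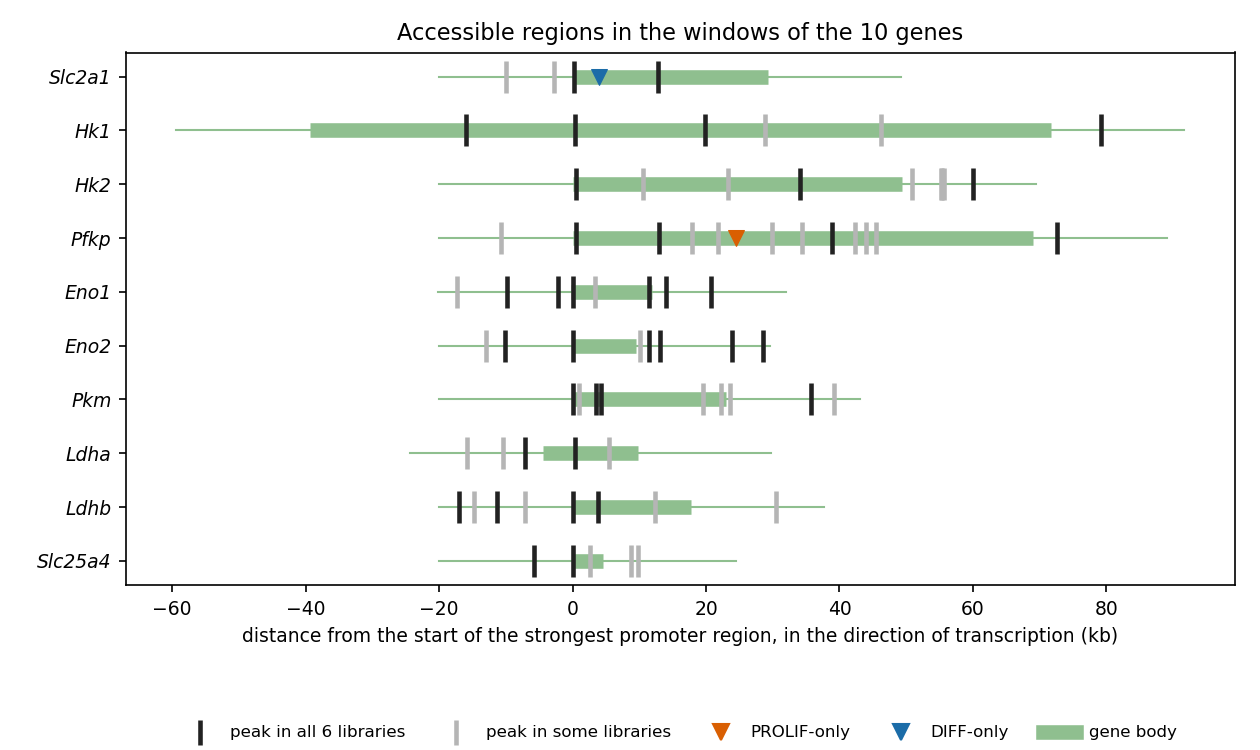
Regions of the 10 genes by distance (kb, horizontal axis) from the annotated start of the gene's strongest promoter region, oriented along transcription, with the gene body as a thick line and the 20 kb flanks as a thin one. Black ticks are the 37 regions with a peak in all 6 libraries, grey ticks the 37 mixed regions, the orange triangle is the PROLIF-only region of Pfkp and the blue triangle the DIFF-only region of Slc2a1. Pfkp carried 13 regions, the most of the 10, of which 9 lay in its gene body away from its starts.

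All 10 genes had a promoter peak, within 3 kb of a start, in all 6 libraries, as had 62.9% of 21938 protein-coding genes. Averaged over the libraries, the promoter of Hk2 ranked highest among the 13807 genes of that kind, above 91.4% of them, and that of Eno2 lowest, above 8.91%. Between them came Ldhb (84.8%), Pfkp (82.9%), Eno1 (82.3%), Slc25a4 (79.6%), Hk1 (78.6%), Slc2a1 (71.3%), Ldha (61.0%) and Pkm (39.9%). These promoters were open in both states, and none of the 10 passed the test between states described next.

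The difference between states was tested with limma on the percentiles of all 40102 regions with a peak in all 6 libraries, with Benjamini-Hochberg adjustment over all of them. It could be fitted for 37 of the 76 regions, because the other 39 lacked a peak in at least 1 library. One region was higher in DIFF, in Hk1, where 5.7% of all regions were, and 1 was lower, in Pfkp, where 5.1% were. With any 1 library left out, 0 to 3 of the 10 genes' regions were called higher and 1 to 2 lower. At an unadjusted p under 0.05 there were 10 of 37 (11422 of 40102 over the genome). The states did not overlap at 8 regions higher in DIFF (21.6%, against 21.1% of all) and at 5 lower (13.5%, against 11.7%). The median difference was 2.04 percentile points, and 2.26 over all regions, so the group lay close to the genome.

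**Figure D3:**
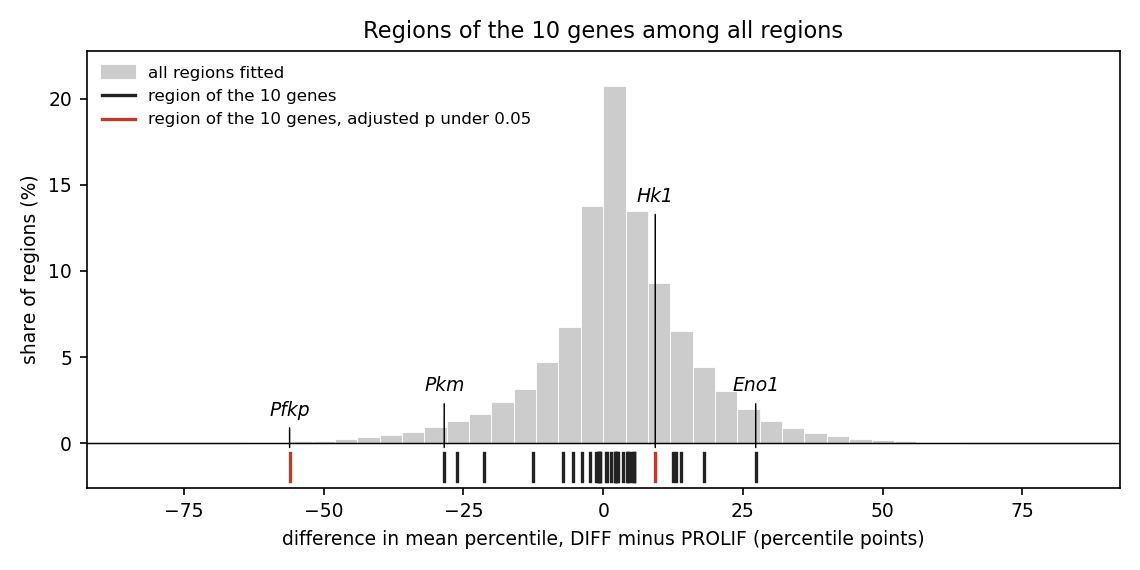
Difference in mean percentile, DIFF minus PROLIF (percentile points, horizontal axis), with the share of all 40102 fitted regions in bins of 4 points (grey bars, %) and the 37 regions of the 10 genes as ticks, red where the adjusted p of limma was under 0.05. The Pfkp region at −56.1 lies far to the left of most regions, whereas the Hk1 region at 9.31 lies within the body of the distribution.

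Glucose entry and trapping came first. The promoter region of Slc2a1 (chr4:119108418-119109430, over its first exon) had percentiles of 93.1, 92.0 and 89.9 in PROLIF 1, 2 and 4 and of 94.8, 93.9 and 94.1 in DIFF 1, 2 and 4. Every DIFF library lay above every PROLIF library, by a difference in means of 2.61 points (SE 1.16, limma adjusted p = 0.161), which did not pass. The DIFF-only region of this gene lay in an intron, 3656 bp from the nearest start (chr4:119112525-119112819), at percentiles of 43.1, 18.9 and 29.6 in DIFF 1, 2 and 4 and fold enrichments of 3.06, 2.57 and 2.31. These were weak peaks, each below the middle of its list, so the missing PROLIF peaks mean a signal under the caller's threshold. The 201 bases around its summit held 2 CCAAT matches, a motif found in 25.5% of all regions and 27.5% of DIFF-only ones.

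The Hk1 gene spans 111054 bp of chromosome 10 and has several annotated starts, and its strongest promoter region (chr10:62339474-62340967) lay at an inner one. No region touched its most upstream start. Percentiles at the inner promoter were 95.2, 92.6 and 93.0 in PROLIF and 95.1, 95.9 and 97.1 in DIFF, which overlap (difference 2.43, SE 0.991, limma adjusted p = 0.132). The one region of the 10 windows called higher in DIFF lay farther upstream, in an intron 1539 bp from another start (chr10:62356210-62356823, 614 bp). Its percentiles were 85.8, 82.8 and 79.1 in PROLIF and 91.5, 90.1 and 94.0 in DIFF. The states did not overlap, and the difference was 9.31 points (SE 2.28, limma adjusted p = 0.0242). The call depended on the setting. It held with peaks of q of 0.001 or lower (limma adjusted p = 0.0269), with lists of equal length (0.00672) and with the replicate number as a block (0.0145). Leaving out PROLIF 1 or PROLIF 4 also kept it (limma adjusted p = 0.0116 and 0.0375). It was lost with log2 fold enrichment in place of the percentile (0.19 on the log2 scale, limma adjusted p = 0.212). Leaving out PROLIF 2, DIFF 1, DIFF 2 or DIFF 4 also lost it, with 8.23 to 10.2 points and adjusted p from 0.0513 to 0.116. Within the 2 ranges of dataset numbers the difference was 9.04 and 9.25.

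Another intronic region of Hk1 (chr10:62294136-62294596), named after its values were seen, had percentiles of 31.6 and 8.71 in PROLIF 1 and 2, no peak in PROLIF 4, and 76.1, 75.8 and 75.7 in DIFF. It could not be fitted with all libraries. Without PROLIF 4, which has the shortest list, the difference was 55.7 points (limma adjusted p = 0.00846, 2 against 3 libraries). One more region, beyond the 3′ end of Hk1 in the body of a neighbouring gene (chr10:62261142-62261624), had a percentile difference of 13.1 (limma adjusted p = 0.052), and its states did not overlap either. At the remaining constant region in the gene (chr10:62320302-62320989) the states overlapped, at 88.8, 88.7 and 90.8 in PROLIF and 82.9, 87.1 and 91.4 in DIFF (difference −2.34, SE 2.23, limma adjusted p = 0.521). These last 2 regions were also named after their values were seen.

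Hk2 had the strongest promoter peak (chr6:82772966-82774938, 1973 bp), at percentiles of 98.3, 97.8 and 96.6 in PROLIF and 97.0, 98.0 and 99.0 in DIFF. The pileup under its peak was 209, 164 and 116 reads in PROLIF and 146, 182 and 311 in DIFF, where DIFF 4 is the deepest library. The states overlapped (difference 0.42, SE 0.720, limma adjusted p = 0.74). Of its 9 regions, 3 were in all libraries and 3 in 1 library alone, and a group of 3 weak ones, singled out after their values were seen, lay side by side beyond its 3′ end at percentiles between 0.898 and 8.77. The outer regions of this group held copies of one short unit around their summits. They were too short for the search for repeats, and the part of mapping in their values was not tested.

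Phosphofructokinase gave the clearest difference between states. The promoter of Pfkp (chr13:6647243-6649250) stayed open in both, at percentiles of 96.5, 96.0 and 96.2 in PROLIF and 94.9, 94.3 and 97.1 in DIFF (difference −0.79, SE 0.875, limma adjusted p = 0.59). Inside the gene, 282 bp from an alternative start in GENCODE (chr13:6635180-6636368, intronic, 1189 bp), the percentiles were 67.5, 70.2 and 58.7 in PROLIF and 1.43, 18.8 and 7.87 in DIFF. The RefSeq promoter of Pfkp lay at the main promoter and not at this alternative start, whose use was not tested. The states were far apart, a difference of −56.1 points (SE 9.67, limma adjusted p = 0.00542), and only 0.15% of all fitted regions had a lower one. Fold enrichment at the summit was 6.97, 7.31 and 5.40 in PROLIF and 2.70, 3.69 and 2.39 in DIFF. The peaks also covered less: 820, 881 and 1005 bp in PROLIF, and 328, 292 and 156 bp in DIFF, a log2 difference of −1.87 (SE 0.308), whose limma adjusted p of 0.0773 did not pass. The percentile difference was −61.7 and −56.8 within the 2 ranges of dataset numbers, and from −60.8 to −52.1 with any 1 library left out, with an adjusted p of at most 0.0308. With peaks of q of 0.001 or lower, or with lists cut to equal length, the region no longer had a peak in all 6 libraries and could not be fitted.

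Sequences are given of this region, of the 2 state-only regions and of a mixed Pfkp region with an AP-1 match. Each is the 201 bases centred on the median, over libraries, of the summit of the library's best-ranked peak. The same motifs are in capitals. Only these bases were searched. The stretch of the Pfkp region lower in DIFF held no match, but the rest of its 1189 bp was not searched.

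Pfkp intron, lower in DIFF (chr13:6635582-6635782, + strand): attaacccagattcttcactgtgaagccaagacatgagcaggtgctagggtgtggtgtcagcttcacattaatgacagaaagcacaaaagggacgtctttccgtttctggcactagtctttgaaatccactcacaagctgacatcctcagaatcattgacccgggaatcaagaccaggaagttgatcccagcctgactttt
Pfkp intron, PROLIF-only (chr13:6624225-6624425, + strand): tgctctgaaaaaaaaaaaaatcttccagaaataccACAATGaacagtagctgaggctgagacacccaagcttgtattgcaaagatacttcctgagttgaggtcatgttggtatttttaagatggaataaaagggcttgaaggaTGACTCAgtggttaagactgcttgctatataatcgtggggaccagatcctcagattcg
Pfkp intron, mixed (chr13:6614273-6614473, + strand): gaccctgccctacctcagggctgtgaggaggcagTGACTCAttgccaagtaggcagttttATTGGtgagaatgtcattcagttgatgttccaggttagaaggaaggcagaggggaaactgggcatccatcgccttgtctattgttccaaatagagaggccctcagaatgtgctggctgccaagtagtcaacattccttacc
Slc2a1 intron, DIFF-only (chr4:119112562-119112762, + strand): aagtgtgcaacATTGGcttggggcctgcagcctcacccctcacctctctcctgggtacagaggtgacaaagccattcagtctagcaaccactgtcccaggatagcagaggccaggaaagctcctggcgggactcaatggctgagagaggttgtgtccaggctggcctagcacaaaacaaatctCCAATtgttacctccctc

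The PROLIF-only region of Pfkp (chr13:6624186-6624448), 12202 bp from the nearest start, had percentiles of 16.2, 29.6 and 41.1 in PROLIF 1, 2 and 4 and fold enrichments of 3.64, 4.31 and 4.85. It held an AP-1 match, TGACTCA, and a SOX match, ACAATG. AP-1 matches were in 31.9% of the 2141 PROLIF-only regions of the genome, in 4.52% of the 4161 DIFF-only ones and in 8.17% of all. Within the Pfkp window the motif was in 4 of 13 regions. A weak intronic one had peaks in PROLIF 1 and 4 alone (percentiles 18.0 and 8.77), and an intergenic one in PROLIF 1 alone (22.9), so that 3 of the 4 had peaks in PROLIF and none in DIFF. The other was an intronic region (chr13:6614201-6614630, named after its values were seen) with percentiles of 15.9 and 8.71 in PROLIF 1 and 2, no peak in PROLIF 4, and 56.1, 60.0 and 71.8 in DIFF. Without PROLIF 4 that region differed by 50.3 points (limma adjusted p = 0.015, 2 against 3 libraries), and it could not be fitted with all libraries. Around the summits of all 76 regions AP-1 matches were found in 11 (14.5%, against 8.17% of all regions), and ACGTG in 17 (22.4%, against 9.92%). Outside Pfkp, no AP-1 region had peaks in PROLIF alone. An intronic one of Hk2 (chr6:82751069-82751336) had peaks in DIFF 1 and 4 alone. One near Slc2a1 (chr4:119105809-119105949) had peaks in PROLIF 1, DIFF 2 and DIFF 4, and the others were in all 6 libraries. Differences at those constant ones ran from −21.2 percentile points in an intron of Slc2a1 (limma adjusted p = 0.222) to 5.51 at the Eno2 promoter (limma adjusted p = 0.733). That Slc2a1 region (chr4:119121254-119121633) was named after its values were seen, and its states overlapped.

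**Figure D4:**
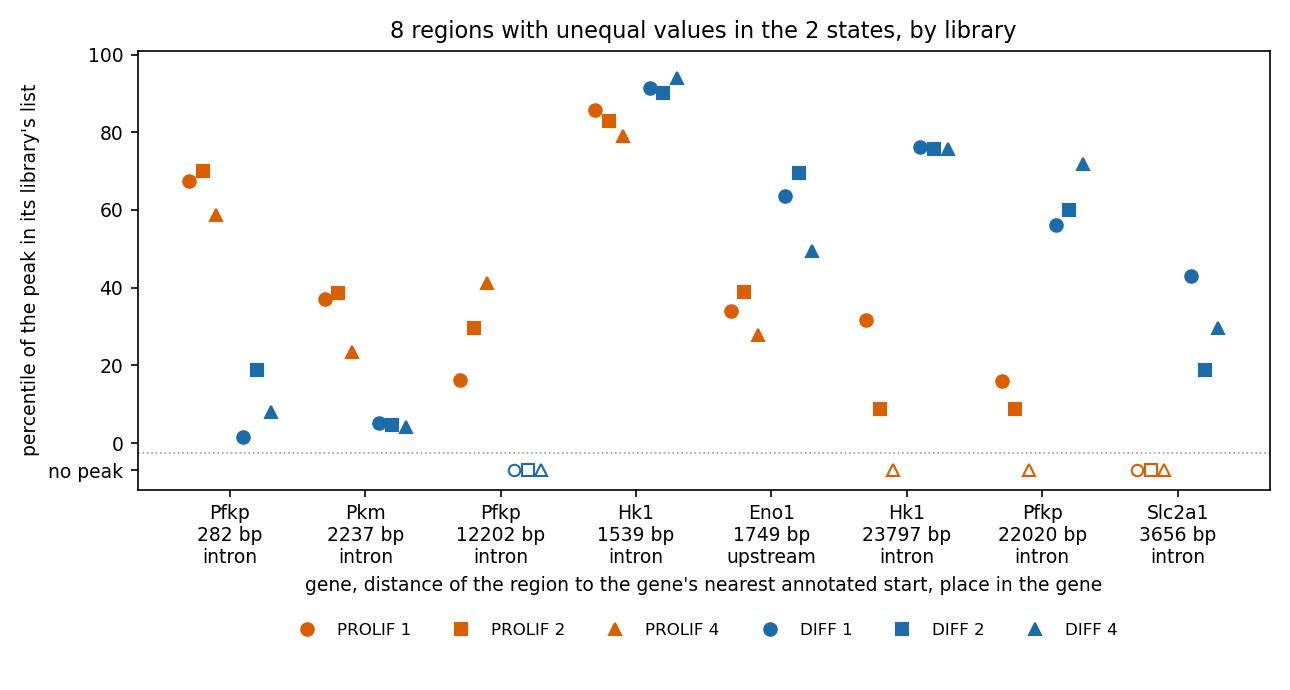
Percentile of the strongest peak in its library's list (vertical axis) for 8 regions with unequal values in the states, labelled by gene, distance to the nearest annotated start and place, with PROLIF in orange, DIFF in blue and a symbol for each replicate number. Open symbols below the dotted line are libraries with no peak. The Pfkp region at 282 bp lies between 58.7 and 70.2 in PROLIF and at or below 18.8 in DIFF, and the regions on the right show the opposite order. The mixed regions shown were picked for higher values in DIFF, so no mixed region nearer to PROLIF could enter.

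Pfkp also contained a long tandem repeat, which was singled out after its values were seen. The region of 5515 bp in its intron (chr13:6607186-6612700) was in all 6 libraries, with 7, 3 and 3 separate peaks in PROLIF 1, 2 and 4 and 5, 3 and 3 in DIFF 1, 2 and 4. Of its bases, 97.2% equalled the base 60 positions on, and 97.3% of it is repeat-masked. A neighbouring region (chr13:6605921-6607088) belonged to the same repeat, with 97.4% equal at 60 bases. They were the only 2 of the 76 regions with over 90% of their bases masked, the median being 6.28%. The stretch printed here, taken from within the longer region, shows 2 units.

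Pfkp repeat (chr13:6609686-6609805, + strand): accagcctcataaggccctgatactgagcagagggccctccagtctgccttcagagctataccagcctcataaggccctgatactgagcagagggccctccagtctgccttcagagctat

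Reads from near-identical units are hard to place, and the part of mapping in these values was not tested. The 2 regions made up 52.5%, 39.0% and 44.7% of the length covered by peaks in the Pfkp window in PROLIF 1, 2 and 4, and 62.1%, 65.9% and 69.8% in DIFF. The share was thus higher in every DIFF library. Percentiles of the longer one were 33.3, 32.2 and 56.6 in PROLIF and 39.8, 35.7 and 53.0 in DIFF, which overlap.

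The 2 enolases differed in level. The Eno1 promoter (chr4:150236547-150237584) had percentiles of 96.7, 94.9 and 94.4 in PROLIF and 96.0, 93.7 and 98.4 in DIFF. The Eno2 promoter (chr6:124769136-124769845) had 68.6, 56.8 and 37.1 in PROLIF and 61.4, 50.6 and 67.0 in DIFF, under Eno1 in every library. Its pileups were 41, 28 and 20 reads in PROLIF and 30, 27 and 47 in DIFF, where Eno1 had 170, 120 and 98 and 145, 130 and 289. Neither promoter differed between states beyond the spread (limma adjusted p = 0.718 for Eno1 and 0.733 for Eno2, differences 0.72 and 5.51). The neuronal isozyme gene thus had a promoter peak already in PROLIF, and no change in it was detectable with 3 libraries a state.

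The largest higher value in DIFF that did not pass was upstream of Eno1 (chr4:150234675-150234972, 1749 bp from the start). Its percentiles were 33.9, 38.9 and 27.8 in PROLIF and 63.6, 69.4 and 49.5 in DIFF, without overlap (difference 27.3, SE 8.84, limma adjusted p = 0.0681). The states did not overlap at 4 of the 6 constant regions of the Eno1 window, each higher in DIFF (21.1% of all fitted regions were so placed), an observation made after the values were seen and not tested as a set. The Eno2 window lies among other genes, and its lowest difference belonged to one of those. A region at the start of Lrrc23, named after its values were seen, had percentiles of 63.2, 56.0 and 46.7 in PROLIF and 13.3, 21.8 and 52.2 in DIFF (difference −26.2, limma adjusted p = 0.147), so that DIFF 4 overlapped with PROLIF.

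Pkm had the second weakest promoter of the 10 (chr9:59655933-59656863), at percentiles of 82.8, 73.2 and 82.7 in PROLIF and 86.6, 82.5 and 86.1 in DIFF (difference 5.47, SE 3.53, limma adjusted p = 0.333). Downstream of it, in an intron 2237 bp from the nearest start, lay the region with the largest lower value in DIFF that did not pass (chr9:59660480-59660796). Percentiles were 37.1, 38.7 and 23.5 in PROLIF and 5.13, 4.67 and 4.16 in DIFF, without overlap (difference −28.4, SE 11.8, limma adjusted p = 0.137). With quantile-normalized log2 fold enrichment in place of the percentile this region did pass (−0.51 on the log2 scale, limma adjusted p = 0.012). At 3 of the 4 constant regions of the Pkm window every DIFF library lay under every PROLIF library (11.7% of all fitted regions were so placed), and the promoter was the exception. One of the 3 lay in the body of the neighbouring gene Gramd2. That too was seen after the fact.

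At both lactate dehydrogenase genes the promoters did not pass the test. The main Ldha promoter region (chr7:46845300-46847165), which holds the E-boxes, the CRE and the other ACGTG match shown above, had percentiles of 93.9, 89.9 and 82.5 in PROLIF and 89.4, 89.8 and 93.2 in DIFF. Another constant region, named after its values were seen, lay farther upstream, 2129 bp from the nearest annotated start (chr7:46837984-46839346). Its percentiles were 89.6, 86.8 and 83.4 in PROLIF and 83.5, 83.7 and 89.0 in DIFF. The states overlapped at both, with differences of 2.04 (SE 2.49, limma adjusted p = 0.626) and −1.21 (adjusted p = 0.796). The Ldhb promoter (chr6:142507255-142508481) stood higher, at 97.4, 97.1 and 95.8 in PROLIF and 96.9, 94.0 and 96.4 in DIFF (difference −0.997, SE 0.893, limma adjusted p = 0.494).

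Slc25a4, the mitochondrial carrier, had the promoter with the narrowest range of percentiles among the 10 (chr8:46210468-46211886): 95.4, 95.1 and 95.5 in PROLIF and 95.3, 94.2 and 94.8 in DIFF. The percentile difference of −0.59 (SE 0.816, limma adjusted p = 0.674) was within the spread. Other measures of this promoter were not the least variable. Its fold enrichment ran from 10.9 to 13.8, against 11.4 to 12.9 at the Ldhb promoter, and its covered length from 786 to 1419 bp. A weak region 2504 bp inside, over an exon (chr8:46208448-46208780), named after its values were seen, had a peak in PROLIF 1 alone among PROLIF libraries (percentile 16.0) and in all 3 DIFF libraries (36.1, 24.5 and 38.9).

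**Figure D5:**
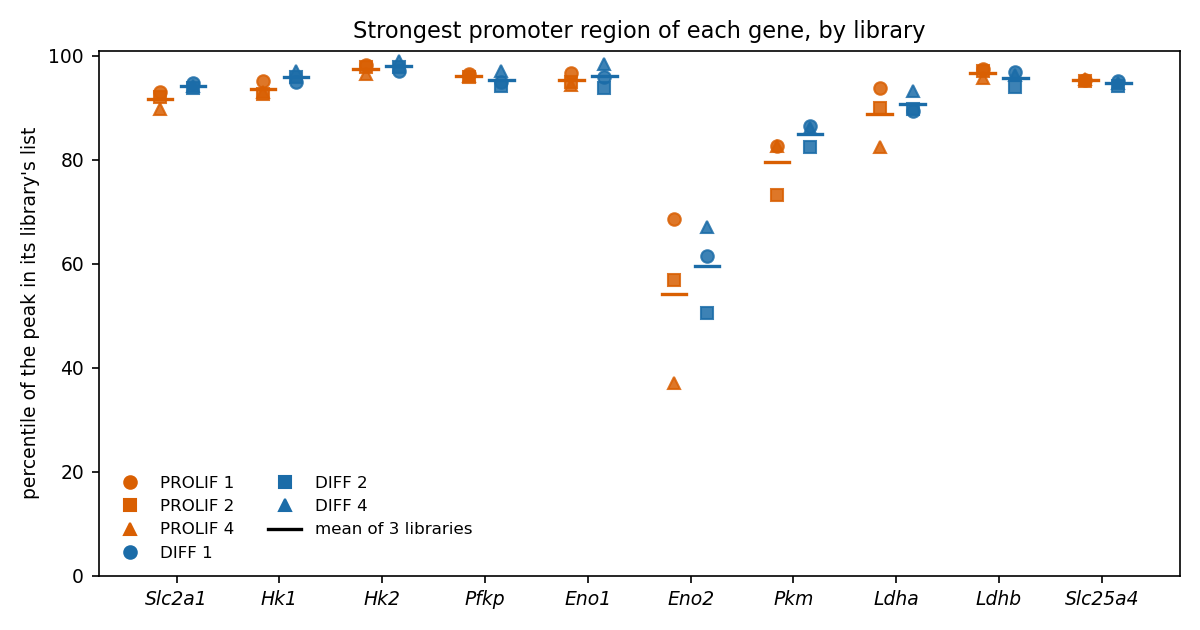
Percentile of the strongest promoter region of each gene (vertical axis, from 0 to 100) in PROLIF (orange) and DIFF (blue), 1 symbol a library and a bar for the mean of 3. The Eno2 promoter lies lowest, between 37.1 and 68.6, the Pkm promoter between 73.2 and 86.6, and the other 8 reach at least 82.5 in every library.

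Peak width and covered length gave no call among these genes. Of the 37 regions fitted for width, 0 passed limma as wider in DIFF and 0 as narrower, where 0.0424% and 0.0673% of all regions did, and 7 had an unadjusted p under 0.05 (13.9% of all regions had). For whole windows, the length covered by peaks was divided by the Mb covered in the library's list and fitted as log2(value + 10) for 17800 protein-coding genes. None of the 10 passed (0 higher and 0 lower, against 2.61% and 1.63% of all genes), and 1 had an unadjusted p under 0.05. That was Hk1, at 76.4, 75.8 and 90.4 bp per Mb covered in PROLIF and 94.2, 111 and 88.6 in DIFF, a log2 difference of 0.25 (SE 0.114, limma adjusted p = 0.256). The 10 differences ran from −0.17 (Ldhb) to 0.25 (Hk1) on that scale, with a median of 0.02. Pfkp, with 196, 200 and 260 bp per Mb in PROLIF and 241, 187 and 249 in DIFF, did not pass (log2 0.05, SE 0.130, adjusted p = 0.898). The tandem repeat made up 52.5%, 39.0% and 44.7% of that length in PROLIF and 62.1%, 65.9% and 69.8% in DIFF. The window was not fitted without the repeat, so the value does not show that the rest of the window was unchanged.

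Other genes of the pathway were read in the same way. Of 19 widely used isozymes and partners, from Gpi1 and Gapdh to the pyruvate carriers Mpc1 and Mpc2, 18 had a promoter peak in all 6 libraries, against 62.9% of all protein-coding genes. The exception was Slc16a3, the lactate exporter MCT4, with 1 weak peak in DIFF 4 (percentile 24.2). One of the 19 windows passed limma as higher and 0 as lower, where 2.61% and 1.63% of all genes did: Bpgm, the bisphosphoglycerate mutase, had 47.3, 35.9 and 54.3 bp per Mb covered in PROLIF and 67.1, 70.7 and 84.2 in DIFF (log2 0.60, SE 0.140, limma adjusted p = 0.037). Among isozymes known from other tissues, Eno3 and Slc2a4 had a promoter peak in all 6 libraries, Hkdc1 and Gapdhs in 5 (both without one in PROLIF 4) and 8 in none. The window of Hk3, a hexokinase of blood cells, passed limma as higher in DIFF although its own promoter had no peak: 0, 3.62 and 0 bp per Mb covered in PROLIF and 23.2, 9.87 and 23.9 in DIFF (adjusted p = 0.045 for the log2 difference of 1.34, which depends on the 10 added).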

How the data were processed

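ATAC-seq peak lists of 6 libraries (3 PROLIF, 3 DIFF) were analysed. The authors removed adapters (Cutadapt) and poor ends (Trimmomatic), aligned read pairs to GRCm38 with Bowtie2, flagged duplicates (Picard) and ran MACS2 on each library for narrow peaks at a false discovery rate of 0.05 without a shifting model. Versions and any shift for the transposase are not given in the sources used here, and either can move peak edges. The deposited lists give a score, a fold (a ratio to local background) and −log10 p and q, so that no peak means only that the caller's threshold was not reached.

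Peaks on chromosomes 1 to 19, X and Y were merged at 1 bp of overlap. Background pileup (percentile 1 of the local backgrounds) was solved from fold and p under a Poisson model and stands for depth. Limma 3.58.1 in R 4.3.3 (lmFit, eBayes with trend) was fitted, 3 against 3 libraries, to percentiles and to log2 of covered bp of regions with a peak in all 6 libraries, and to log2(covered bp per Mb covered + 10) of gene windows with a mean of at least 10, adjusted over all features. On simulated data, differences of 20 and 40 percentile points were recovered in 20% and 52% of planted regions. Some genes of the lists are not reported here. The members, gene lists, motifs and tests were chosen with earlier results of these data known. Named are all 10 members with their strongest promoter region, every state-only region, regions past an adjusted p of 0.05, the largest difference in each direction otherwise, and pathway genes past that threshold or with a promoter peak in some libraries, and any other is said to be named after its values were seen. Alternatives were stricter or equal-length lists, other windows, covers, pseudocounts and filters, log2 fold, a replicate block and leaving out each library.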

Additional observations from a re-analysis of the deposited data

How the results depend on the processing

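All 10 promoters kept a peak in all 6 libraries under each alternative run for that count. Regions in all 6 libraries numbered 37 to 42 without 1 library, and 23 where a library's peaks had to cover 50% of the region. PROLIF-only regions numbered 1 to 2 without 1 library, 2 at q of 0.001 or lower and 3 at 50% cover. DIFF-only regions numbered 1 to 5 without 1 library (4 without PROLIF 1, 5 without DIFF 2) and 3 in lists of equal length. Depth limits these classes, since a list records nothing under the caller's threshold.

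For percentiles, leaving out 1 library gave 515 to 5025 regions called higher in DIFF and 936 to 1834 lower over the genome, and 0 to 3 higher and 1 to 2 lower among the 10 genes. Lists of equal length called 3530 lower over the genome, and 2 higher (both of Hk1) and 2 lower (of the Pkm and Eno2 windows) among the 10 genes. Quantile-normalized log2 fold called 3569 lower, 3 of them in the 10 windows (Pfkp, Pkm and the Lrrc23 region), and at q of 0.001 or lower 0 of the 10 genes' regions were lower, because the Pfkp region then lacked peaks. The promoter of Hk1 passed without PROLIF 1 (3.22 points, limma adjusted p = 0.0443). Promoter differences that had not passed changed sign with log2 fold in Pfkp (0.0499), Slc2a1 (−0.0399), Eno1 (−0.0191), Ldhb (0.0347) and Ldha (−0.0041), and without 1 library ran from −0.479 to 1.87 in Eno1, −0.085 to 0.902 in Hk2, −3.02 to 12.7 in Eno2 and −1.07 to 4.59 in Ldha. Percentiles near 100 are compressed, so small differences there say little.

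Gene windows called over the genome numbered 61 higher and 40 lower with no filter on low values, and between 89 and 467 higher and 61 and 210 lower without 1 library, with 0 of the 10 genes in each. The Pfkp window, tandem repeat included, ran from −0.0261 to 0.172 on the log2 scale. Width calls over the genome were 7 wider and 13 narrower at q of 0.001 or lower, 2 and 9 in equal lists, and 0 and 0 with any 1 library left out.

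With the replicate number as a block, 3 regions were nearer to PROLIF and 8 to DIFF in occupancy (a difference in at least 2 of 3 same-numbered pairs). By percentile, 2 regions of the 10 windows were lower (Pfkp and the region at Grcc10 and Ptpn6). The Hk1 region called in the main fit was again higher (limma adjusted p = 0.0145). Gene windows gave 809 higher and 569 lower calls, and width 0 and 0. Same-numbered libraries correlated at 0.0606, 0.158 and 0.0138 in their deviations from the state means, and libraries of different number at −0.116 to 0.0592. These correlations do not settle whether the numbers mark pairs, and the main fits did not use them as such. The cause of these shifts was not tested.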
